A study of Homo sapiens with 18 samples.

Results

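The genes described here are 43 factors that act in the nucleolus to make ribosomes. They were taken by symbol from a list of known factors that was chosen with earlier results of these data known. Their rows are 43 of the 23686 gene symbols in the deposited tables. All 43 were present in the tables of both cell lines, and all 43 passed the filter on low counts in each line. By role, 6 act in RNA polymerase I (Pol I) transcription, 3 form the protein core of box C/D small nucleolar ribonucleoproteins (snoRNPs) and 4 the core of box H/ACA snoRNPs. A further 11 belong to small-subunit assembly, 13 to large-subunit assembly and 6 to several steps. The list is a choice of well-known factors and not a complete census of the pathway.

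RNA was sequenced in 18 libraries from OCI-Ly1 and TMD8, established human lines of diffuse large B-cell lymphoma. Each line had 3 groups of 3 libraries: the vehicle (0.01% DMSO), 150 nM JIB-04 and 500 nM JIB-04. JIB-04 is a small-molecule inhibitor of Jumonji-domain histone demethylases. OCI-Ly1 grew in IMDM and TMD8 in RPMI, each with serum, so the line and its medium changed together. The labels describe the libraries of a group as technical triplicates and name no treatment time. They do not say whether the 3 libraries came from separate cultures, so every p-value below measures only the spread between these libraries, which may be technical.

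Ribosome production starts when Pol I, brought to the ribosomal DNA by UBTF and RRN3, copies the long precursor of ribosomal RNA. While the precursor is being made, box C/D and box H/ACA snoRNPs modify it, and assembly factors fold it, cut it and load ribosomal proteins along a small-subunit and a large-subunit branch. In growing lymphoma cells this machinery is highly expressed, and many of its genes are known targets of MYC, a factor that binds the E-box CACGTG together with its partner MAX. The libraries were depleted of ribosomal RNA. The values below are for RNA of the factors' own genes, and the ribosomal RNA precursor was not examined.

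The shared letters at the starts of these genes are shown first. RefSeq promoter windows of GRCh38.p14, from 250 bases before to 50 bases after the gene start, were found by symbol for 36 of the 43 factors. The deposited data are on hg19 per the submitters' processing notes, so these windows serve only for sequence and not for any count. The E-box CACGTG, which reads the same on both strands, occurred in 14 of the 36 windows (38.9%). In all 27305 windows of the table the share was 7.43%, and among the 9985 windows of genes tested in both lines it was 10.1%. The 15 matches lay from 237 bases before to 36 bases after the start, 13 of them within 50 bases of it and 10 within 20. Those 10 are printed because they show how close to the start the motif sits. Each line is a 30-base stretch on the gene's own strand, with the E-box in capitals.
FBL: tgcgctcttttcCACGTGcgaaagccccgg
NOP10: gaaattgacgaaCACGTGacgcggtcgggc
RRP9: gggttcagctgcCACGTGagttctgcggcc
UTP20: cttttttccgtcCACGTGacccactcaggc
WDR43: cgcacggacgaaCACGTGgctgcagcgggg
NOP14: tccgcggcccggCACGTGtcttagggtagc
PNO1: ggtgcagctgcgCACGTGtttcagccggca
PES1: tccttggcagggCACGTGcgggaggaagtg
GNL2: gtacgtcgtgcaCACGTGgtccggcgtggt
MRTO4: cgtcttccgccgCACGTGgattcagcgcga

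In GRCh38.p14 these stretches lie at or just after the start of each gene, and those of NOP14, PES1 and MRTO4 begin after it. Those of FBL (chr19:39846356-39846385, minus strand) and NOP10 (chr15:34343130-34343159, minus strand) belong to snoRNP proteins. Those of RRP9 (chr3:51941892-51941921, minus strand), UTP20 (chr12:101280083-101280112, plus strand), WDR43 (chr2:28894658-28894687, plus strand), NOP14 (chr4:2963374-2963403, minus strand) and PNO1 (chr2:68157885-68157914, plus strand) belong to small-subunit factors. Those of PES1 (chr22:30591880-30591909, minus strand), GNL2 (chr1:37595917-37595946, minus strand) and MRTO4 (chr1:19251807-19251836, plus strand) belong to large-subunit factors. The E-box began at base -11 in NOP10, -10 in UTP20 and -5 in RRP9, counted from the first transcribed base as 1, and just after the start in the other stretches. On both strands, CCGGAAG (the core bound by ETS factors) was found in 10 of 36 windows (27.8%, against 10.7% of all windows and 18.7% of those of tested genes). A match is a description of the letters in the window and not of a factor bound there.

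Library totals ran from 9550092 to 32651115 estimated counts, and the 43 factors had between 124 and 52233 counts in a library. The B-cell genes MS4A1, CD79A, CD79B, PAX5 and CD22 were at 29.3 TPM (transcript copies, corrected for length, scaled to 1e+06 per library) or more in all 18 libraries. Of 14 markers of T cells, myeloid, epithelial and fibroblast cells, 10 stayed at or below 2 TPM in every library. The other 4 were CD3D and EPCAM in OCI-Ly1, CDH1 in both lines and COL1A1 in TMD8. In OCI-Ly1 the 14 summed to 20.5 to 22.5 TPM under the vehicle, 15.1 to 18.8 TPM under 150 nM and 10.6 to 11.8 TPM under 500 nM, and 1, 1 and 2 of them were at 0 in the whole group. In TMD8 they summed to 10.5 to 11.8 TPM, 10.4 to 11.4 TPM and 10.9 to 12.5 TPM, with 2, 2 and 3 at 0. CD3D was the highest of the 14 in OCI-Ly1 (10.8 to 12.9, 6.80 to 9.47 and 4.68 to 5.08 TPM), and in TMD8 COL1A1 went from at most 0.451 TPM with the vehicle to at least 2.58 TPM with 500 nM. The part of these markers in the results was not tested. The within-group pairs of libraries correlated at 0.997 or more in log2 CPM, and no pair agreed within sampling noise. Levels below are counts scaled to 1e+06 per library after TMM normalisation within a line (CPM), given for each library or as mean ± SD of 3 libraries. Changes are log2 fold changes with their standard error (SE) from edgeR's quasi-likelihood test, and a factor was called at a Benjamini-Hochberg adjusted p under 0.05 over all genes tested. A CPM is a share of a library's RNA, and in bulk samples fewer cells of a kind and less RNA per cell cannot be told apart.

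On the per-length TPM scale, NPM1 and NCL were the most abundant of the 43 with DMSO in both lines. NPM1 stood at 1921 ± 171 TPM in OCI-Ly1 and 856 ± 141 in TMD8 (SD, n = 3), each in its own table. NOP56 followed in OCI-Ly1 at 260.3 ± 3.61 TPM and FBL in TMD8 at 183 ± 22.4 TPM. The lowest level in OCI-Ly1 was that of RRP12, at 12.9 ± 0.635 TPM.

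JIB-04 lowered most of these factors, and TMD8 responded at a dose at which OCI-Ly1 did not pass the test. In TMD8 all 43 factors were called lower at 150 nM and all 43 at 500 nM, with median log2 changes of -0.41 and -0.78. In OCI-Ly1 no factor was called at 150 nM (median -0.06), and at 500 nM 35 were called lower and 2 higher (median -0.29). The medians over all genes tested in the same comparisons were 0.01 and 0.04 in TMD8 and -0.005 and -0.003 in OCI-Ly1.

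Against the background of all genes, the shares read as follows. At 500 nM in OCI-Ly1, 25.9% of 15638 genes were called lower and 27.7% higher, against 81.4% and 4.65% of the factors. At 150 nM in OCI-Ly1 the background was 0.141% lower and 0.748% higher. There 2 of the 43 factors, both lower, had an unadjusted p under 0.05 (4.65%, against 10.2% of all genes), and neither edgeR nor DESeq2 called any. In TMD8, 25% of 15363 genes were called lower and 19.2% higher at 150 nM, and 30.7% lower and 29.9% higher at 500 nM. Libraries did not overlap, with every treated one below every DMSO one, for 7 factors at 150 nM (background 7.29%) and 36 at 500 nM (29.3%) in OCI-Ly1. In TMD8 this held for 42 factors at 150 nM (28.3%) and for all 43 at 500 nM (33.3%).

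The size of the changes also differed between the lines. A call with a log2 change of -0.5 or below was reached by 6 of 43 factors at 500 nM in OCI-Ly1. That share is close to the 11.3% of all genes. The 6 were POLR1B, NOP56, NOP16, GNL3, NCL and NPM1. In TMD8 such a call was reached by 7 of 43 at 150 nM (background 3.49%) and by 40 at 500 nM (13.3%). The exceptions at 500 nM were POLR1A, RRN3 and POLR1E. Between the doses, 33 factors were lower at 500 than at 150 nM in OCI-Ly1 (background 21.1%) and 41 in TMD8 (15%). No factor was called higher at 500 than at 150 nM in either line (background 25.1% in OCI-Ly1 and 13.7% in TMD8). In TMD8 the 2 factors not called between the doses were POLR1E and RRN3.

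The counts in OCI-Ly1 depended on the scale. On log2(TPM + 1), where the median of all genes was 0.10, 21 factors were called lower at 500 nM (background 14.3%). Between the doses 17 were lower and 2 higher on that scale and on log2(TPM + 0.1). The losses at 500 nM were spread over the roles, with 2 of 3 box C/D, 1 of 4 box H/ACA, 4 of 11 small-subunit, 9 of 13 large-subunit and 2 of 6 several-step factors still called lower, and 3 of 6 Pol I factors as before. Centring log2(TPM + 1) on the median moved the calls the other way, with 38.9% of all genes lower at 500 nM. Each of the 35 factors called lower by edgeR kept that call there. POLR1C, POLR1E, DKC1, RRP9 and HEATR1 were called lower as well. Relative to the median of all genes, the factors' median stayed between -0.33 and -0.25 in OCI-Ly1 and between -0.89 and -0.82 in TMD8 at 500 nM over the scaling, filter and tool alternatives.

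**Figure D1:**
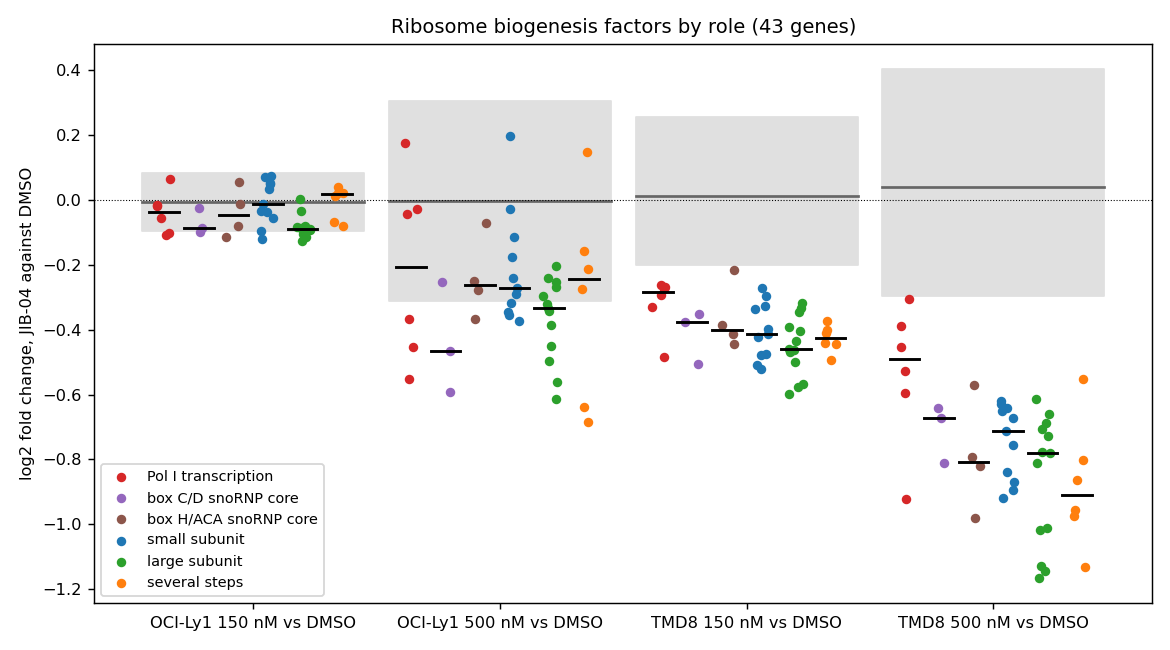
The log2 fold change against DMSO (vertical axis, edgeR) is plotted for each of the 43 factors, coloured by role, in 4 comparisons; black bars are the medians of a role, and each grey box with its line shows the middle 50% and the median of all genes tested. At 150 nM in OCI-Ly1 the points sit inside or close to the grey box, while at 500 nM in TMD8 all 43 lie below it.

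Pol I factors had the smallest median change of the roles at 500 nM in TMD8. In TMD8 all 6 fell at both doses, with median log2 changes of -0.28 and -0.49. OCI-Ly1 was mixed at 500 nM: POLR1A, POLR1B and UBTF fell, RRN3 rose, and POLR1C and POLR1E were not called (log2 changes of -0.03 ± 0.06 and -0.04 ± 0.05 SE), for a median of -0.21. On centred log2(TPM + 1), POLR1C and POLR1E were called lower in OCI-Ly1 (limma adjusted p = 0.04 and 0.036). POLR1A and POLR1B form the catalytic centre of Pol I, POLR1C is shared with RNA polymerase III, and POLR1E belongs to a Pol I-specific heterodimer.

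POLR1B changed most of the 6 in both lines. Its OCI-Ly1 libraries held 113, 115 and 111 CPM under the vehicle, 107, 105 and 114 under the lower dose and 79.5, 75.9 and 75.6 under the higher. In the same order, TMD8 libraries held 154, 147 and 145 CPM, then 115, 106 and 98.3, then 79.4, 79.7 and 76.4. The OCI-Ly1 libraries at 150 nM overlapped those with DMSO and stood above all at 500 nM, whereas in TMD8 the 3 groups were fully separated. On the log2 scale, the 500 nM change was -0.55 ± 0.05 SE in OCI-Ly1 (edgeR adjusted p = 1.7e-07) and -0.92 ± 0.06 in TMD8 (adjusted p = 2.1e-10), which left 52.8% of the DMSO level.

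RRN3, the initiation factor that joins Pol I to the ribosomal DNA promoter, was called in opposite directions. Its OCI-Ly1 libraries held 103, 99.1 and 107 CPM under the vehicle, 105, 113 and 106 under the lower dose and 119, 114 and 117 under the higher. In the same order, TMD8 libraries held 87.4, 78.4 and 79.4 CPM, then 72.1, 68.3 and 63.5, then 62.6, 60.5 and 64.0. All OCI-Ly1 libraries at 500 nM stood above all with DMSO, and all TMD8 libraries at 500 nM stood below those with DMSO. Its log2 change at 500 nM was 0.18 ± 0.05 SE in OCI-Ly1 (edgeR adjusted p = 0.011) and -0.39 ± 0.06 in TMD8 (adjusted p = 1.7e-05). The OCI-Ly1 call was lost on centred log2(TPM + 1) (0.08, adjusted p = 0.17), without the second DMSO library (0.14, adjusted p = 0.071) and without the first 500 nM library (0.16, adjusted p = 0.052). In TMD8 the value was -0.76 on log2(TPM + 0.1).

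RRN3 has near-identical pseudogene copies between which reads could have been split, so its values are uncertain. At 500 nM in OCI-Ly1, RRN3P2 was higher by 0.77 and RRN3P1 lower, with a log2 change of -0.30 (edgeR adjusted p = 1.6e-05 and 0.005). In TMD8, RRN3P2 and RRN3P3 were higher by 0.58 and 0.69 (adjusted p = 0.0024 and 1.2e-05) while RRN3 itself fell.

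All proteins of the box C/D core were called lower in both lines at 500 nM. FBL, the methyltransferase, and NOP56 and NOP58, the scaffold proteins, were 3 of 3 called lower, with a median log2 change of -0.47 in OCI-Ly1 and -0.67 in TMD8. NOP56 held 414, 411 and 405 CPM under the vehicle, 395, 364 and 399 under the lower dose and 275, 269.9 and 271 under the higher in OCI-Ly1. TMD8 libraries held 291, 284 and 283 CPM, then 217, 194 and 195, then 163, 166 and 160.0. In both lines every library was lower at 500 nM than at 150 nM, and every library at 150 nM was lower than with DMSO. The log2 change of NOP56 at 500 nM was -0.59 ± 0.05 SE in OCI-Ly1 (edgeR adjusted p = 9.8e-09) and -0.81 ± 0.05 in TMD8 (adjusted p = 2.3e-10). FBL changed by -0.47 ± 0.07 and -0.64 ± 0.05, and NOP58 by -0.25 ± 0.05 and -0.67 ± 0.06. The OCI-Ly1 call of NOP58 was lost on the uncentred TPM scales (-0.11, limma adjusted p up to 0.11).

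In the box H/ACA core, the pseudouridine synthase DKC1 fell in TMD8 and was not called in OCI-Ly1. All 4 proteins fell in TMD8 at 500 nM (median -0.81), and GAR1, NHP2 and NOP10 fell in OCI-Ly1. On the uncentred TPM scales NHP2 and NOP10 lost the OCI-Ly1 call (limma adjusted p up to 0.19 and 0.076). DKC1 changed by -0.07 ± 0.05 SE in OCI-Ly1 (edgeR adjusted p = 0.21) and by -0.82 ± 0.06 in TMD8 (adjusted p = 8.5e-10). On centred log2(TPM + 1) DKC1 was called lower in OCI-Ly1 (limma adjusted p = 0.0097). GAR1 had the lowest CPM of the 10 factors given library by library in OCI-Ly1, with 19.0, 23.5 and 18.8 under the vehicle, 21.1, 22.7 and 19.3 under the lower dose and 15.7, 16.8 and 14.7 under the higher. In the same order, TMD8 libraries held 29.0, 32.5 and 30.3 CPM, then 24.9, 21.7 and 22.5, then 15.9, 14.6 and 16.1. Its 500 nM libraries lay below all DMSO libraries in both lines, and 1 OCI-Ly1 DMSO library lay well above the other two. The log2 change was -0.37 ± 0.10 in OCI-Ly1 (adjusted p = 0.0045) and -0.98 ± 0.08 in TMD8 (adjusted p = 8.5e-09).

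Small-subunit factors were mixed in OCI-Ly1 and uniform in TMD8. In TMD8 all 11 fell at both doses, with medians of -0.41 and -0.71. In OCI-Ly1 at 500 nM, 8 fell, RRP12 rose, and RRP9 and HEATR1 were not called (-0.11 ± 0.07 and -0.03 ± 0.05 SE), for a median of -0.27. UTP15, WDR43, WDR75 and HEATR1 belong to the subcomplex of the small-subunit processome that binds the nascent precursor first. Of these, UTP15, WDR43 and WDR75 fell in OCI-Ly1 with log2 changes of -0.37, -0.34 and -0.24, while HEATR1 was not called. WDR75 lost the call on the uncentred TPM scales (limma adjusted p up to 0.23). On centred log2(TPM + 1), RRP9 and HEATR1 were called lower in OCI-Ly1 (limma adjusted p = 0.033 and 0.046). In TMD8 HEATR1 changed by -0.76 ± 0.06 (edgeR adjusted p = 4.1e-09).

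UTP15 changed most of the small-subunit factors in both lines. Its OCI-Ly1 libraries held 61.8, 62.4 and 67.0 CPM under the vehicle, 62.1, 67.8 and 71.5 under the lower dose and 47.9, 50.1 and 49.8 under the higher. The TMD8 libraries held 81.1, 70.6 and 76.7 CPM, then 55.9, 54.6 and 49.3, then 40.3, 39.7 and 40.7. In OCI-Ly1 the DMSO and 150 nM libraries overlapped and the 500 nM libraries lay below both, while in TMD8 the 3 groups were separated. The log2 change at 500 nM was -0.37 ± 0.06 SE in OCI-Ly1 (edgeR adjusted p = 0.0001) and -0.92 ± 0.06 in TMD8 (adjusted p = 1.3e-09).

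The factors of late small-subunit maturation also fell in TMD8. NOB1, the endonuclease of the last cut in the small-subunit RNA, and its partner PNO1 changed by -0.62 ± 0.06 and -0.71 ± 0.08 SE there, and BYSL by -0.89 ± 0.06. In OCI-Ly1 the changes were -0.17 ± 0.07, -0.27 ± 0.05 and -0.29 ± 0.07, and the call of NOB1 (edgeR adjusted p = 0.041) held in 7 of 14 alternatives. PNO1 and BYSL lost the OCI-Ly1 call on the uncentred TPM scales (limma adjusted p up to 0.09 and 0.1).

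RRP12, which takes part in the export of pre-ribosomal particles, was the other factor called in opposite directions. OCI-Ly1 libraries held 46.6, 42.9 and 43.7 CPM under the vehicle, 48.9, 44.1 and 44.8 under the lower dose and 48.4, 54.5 and 50.3 under the higher. TMD8 libraries held 146, 131 and 143 CPM, then 121, 109.8 and 104, then 87.0, 87.7 and 93.3. All OCI-Ly1 libraries at 500 nM stood above the vehicle libraries of that line, and the 3 groups of TMD8 were separated. On the log2 scale, the 500 nM change was 0.20 ± 0.07 SE in OCI-Ly1 (edgeR adjusted p = 0.02) and -0.65 ± 0.06 in TMD8 (adjusted p = 3.9e-08). The OCI-Ly1 call was lost on centred log2(TPM + 1) (0.09, adjusted p = 0.24) and without the second DMSO, the third DMSO or the second 500 nM library (0.17, 0.18 and 0.15, with adjusted p = 0.08, 0.06 and 0.11). In TMD8 the value was -1.02 on log2(TPM + 0.1).

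All 13 large-subunit factors were called lower in both lines at 500 nM, though in OCI-Ly1 RRS1, PES1, RRP1 and NIP7 lost the call on the uncentred TPM scales, which left 9. RRP1 also lost it by library size and without the third 500 nM library. They had median log2 changes of -0.33 in OCI-Ly1 and -0.78 in TMD8, and -0.46 in TMD8 at 150 nM. The GTPases GNL2 and GNL3 changed by -0.45 and -0.56 in OCI-Ly1 and by -0.71 and -0.78 in TMD8. PES1, BOP1 and WDR12, which act as 1 complex, changed by -0.25, -0.38 and -0.33 in OCI-Ly1 and by -0.81, -0.66 and -0.73 in TMD8. The smallest fall of the 13 in both lines was that of RRP1 (-0.20 ± 0.06 and -0.62 ± 0.07 SE), while its relative RRP1B changed by -0.34 ± 0.05 and -1.13 ± 0.06.

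NOP16, which joins early large-subunit particles, was the large-subunit factor with the largest change in OCI-Ly1. Libraries of that line held 73.9, 67.8 and 63.6 CPM under the vehicle, 70.0, 62.9 and 59.3 under the lower dose and 45.1, 45.5 and 43.8 under the higher. TMD8 libraries held 50.8, 50.5 and 49.6 CPM, then 35.7, 33.0 and 32.7, then 22.7, 24.7 and 20.5. The 3 groups were separated in TMD8, and in OCI-Ly1 the 500 nM libraries were. Its log2 change at 500 nM was -0.61 ± 0.07 SE in OCI-Ly1 (edgeR adjusted p = 1.3e-06) and -1.15 ± 0.07 in TMD8 (adjusted p = 2.4e-10), leaving 65.4% and 45.2% of the DMSO levels.

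RRS1, which helps to place a ribosomal RNA-protein particle in the large subunit, changed most of all 43 in TMD8. Libraries of TMD8 held 68.2, 59.2 and 58.4 CPM under the vehicle, 48.8, 43.1 and 43.2 under the lower dose and 26.4, 31.0 and 25.1 under the higher. In the same order, OCI-Ly1 libraries held 67.9, 67.8 and 67.3 CPM, then 66.2, 66.6 and 65.8, then 56.1, 59.1 and 47.4. The 3 groups were separated in TMD8, and in OCI-Ly1 the 500 nM libraries lay below the others. The log2 change was -1.16 ± 0.08 SE in TMD8 (edgeR adjusted p = 1.7e-09) and -0.32 ± 0.07 in OCI-Ly1 (adjusted p = 0.00089). In OCI-Ly1 the call was lost on log2(TPM + 1) (-0.19, adjusted p = 0.053). The levels of 6 factors fell below 50% of DMSO in TMD8 at 500 nM: RRS1, NOP16, RRP1B, MRTO4, EBNA1BP2 and LYAR, of which the first 5 are large-subunit factors. That count was 4 by library size, 30 on log2(TPM + 1) and 33 on log2(TPM + 0.1). On these 2 TPM scales the median of all genes was -0.22 and -0.31, and 49.3% of them were called lower on each. The share of all genes below 50% was not counted, so these counts have no background. No factor fell below 50% in OCI-Ly1 on any scale tried.

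Of the factors that act in several steps, nucleolin had the largest fall in OCI-Ly1. NCL, which binds the precursor and nucleolar chromatin, held 1807, 1897 and 1948 CPM under the vehicle, 1760.1, 1715 and 1868 under the lower dose and 1221, 1185 and 1112 under the higher in that line. In the same order, TMD8 libraries held 1373, 1314 and 1286 CPM, then 987, 865 and 971, then 659, 694 and 668. The 500 nM libraries lay below all others of their line. The log2 change at 500 nM was -0.68 ± 0.05 SE (edgeR adjusted p = 1.1e-09) in OCI-Ly1 and -0.97 ± 0.06 in TMD8 (adjusted p = 9.8e-11).

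NPM1, the nucleolar chaperone, was the 1 factor whose fitted fall was larger in OCI-Ly1 than in TMD8. OCI-Ly1 held 1971 ± 138 CPM of it under the vehicle and 1265 ± 50.9 CPM under 500 nM (SD, n = 3). TMD8 held 1571 ± 125 CPM and 1072 ± 7.03 CPM. The log2 changes were -0.64 ± 0.06 and -0.55 ± 0.06 SE, and the difference between the lines, fitted over all 18 libraries, did not pass the test (-0.06, edgeR adjusted p = 0.66). NPM1 has many processed copies in the genome, so reads could have been split and its values are uncertain.

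LYAR, a nucleolar zinc-finger protein, differed most between the lines. Libraries of OCI-Ly1 held 119.7, 125 and 133 CPM under the vehicle, 119.7, 129 and 141 under the lower dose and 149, 139 and 131 under the higher. TMD8 libraries held 25.3, 27.2 and 22.0 CPM, then 20.2, 15.7 and 18.8, then 11.1, 10.4 and 12.7. OCI-Ly1 groups overlapped, and all TMD8 libraries at 500 nM lay below the rest of that line. On the log2 scale, the 500 nM change was 0.15 ± 0.07 SE in OCI-Ly1, not called (edgeR adjusted p = 0.071), and -1.13 ± 0.11 in TMD8 (adjusted p = 8.3e-08). In 6 of 14 alternatives LYAR was called higher in OCI-Ly1, for example with library size as the only scaling (0.23, adjusted p = 0.0044). The helicase DDX21, NOLC1 and MYBBP1A fell in both lines at 500 nM, with log2 changes of -0.21, -0.16 and -0.27 for OCI-Ly1 against -0.86, -0.80 and -0.96 in TMD8. In OCI-Ly1 all 3 lost the call on the uncentred TPM scales (limma adjusted p up to 0.35, 0.81 and 0.22), and NOLC1 also by library size.

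**Figure D2:**
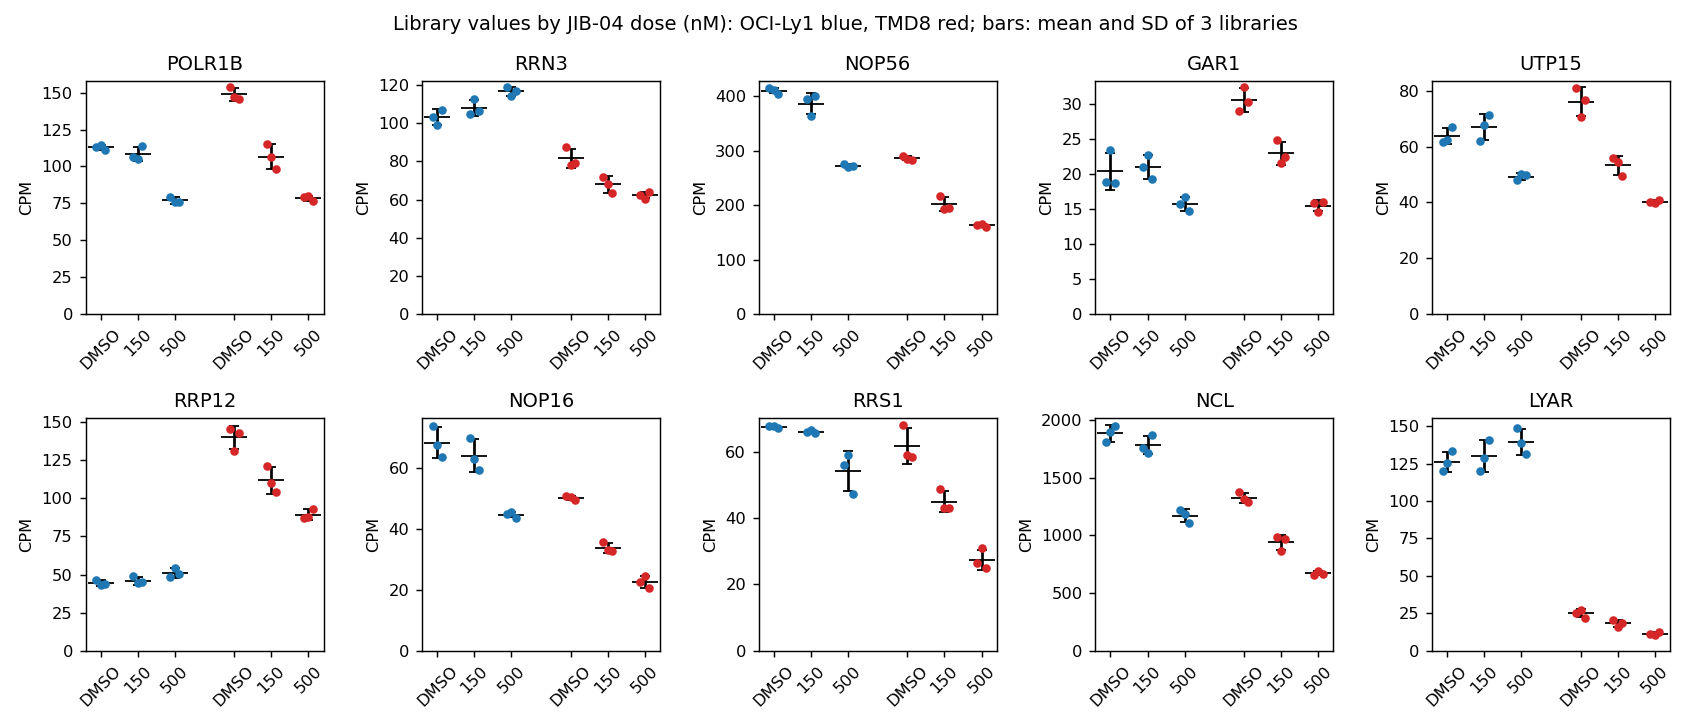
CPM of each library (points, vertical axes starting at 0) by JIB-04 dose for 10 factors, with OCI-Ly1 in blue and TMD8 in red; bars are the mean and SD of 3 libraries. POLR1B, NOP56, UTP15, NOP16 and NCL step down with each dose in TMD8 and mainly at 500 nM in OCI-Ly1, while RRN3, RRP12 and LYAR do not fall in OCI-Ly1.

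Summed over the genes of a role, the levels showed the same dose pattern. All 43 together held 10624 ± 227 CPM under the vehicle, 10361 ± 375 under the lower dose and 8001 ± 217 under the higher in OCI-Ly1 (SD, n = 3). In TMD8 they held 9099 ± 379, 6816 ± 368 and 5395 ± 46.0. The several-step group, which contains NPM1 and NCL, made up the largest part of these sums. In the same order, Pol I transcription summed to 789.8 ± 10.8, 760.0 ± 9.69 and 658 ± 7.88 CPM for OCI-Ly1, against 861 ± 29.4, 693 ± 27.0 and 598 ± 7.45 CPM for TMD8. Small-subunit factors summed to 1477 ± 20.8, 1478 ± 50.4 and 1272 ± 20.6 CPM for OCI-Ly1, against 1338 ± 65.6, 1000.3 ± 57.4 and 791 ± 0.828 CPM for TMD8. Large-subunit factors summed to 1984 ± 26.2, 1867 ± 42.2 and 1523 ± 32.5 CPM for OCI-Ly1, against 1623 ± 30.1, 1185 ± 77.1 and 900.2 ± 10.0 CPM for TMD8. In each of these roles all TMD8 libraries at 500 nM lay below all at 150 nM, and all at 150 nM below all with DMSO. In OCI-Ly1 the small-subunit CPM sums with DMSO and at 150 nM overlapped. Those of the Pol I and large-subunit factors were all lower at 150 nM than with DMSO. On summed TPM, however, the Pol I groups of OCI-Ly1 overlapped at every dose. Their libraries held 292 to 301 TPM with DMSO, 291 to 307 at 150 nM and 284 to 296 at 500 nM. Large-subunit TPM sums at 150 nM (1141 to 1212) overlapped those with DMSO (1202 to 1235). At 500 nM (1000 to 1058) they lay below both.

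**Figure D3:**
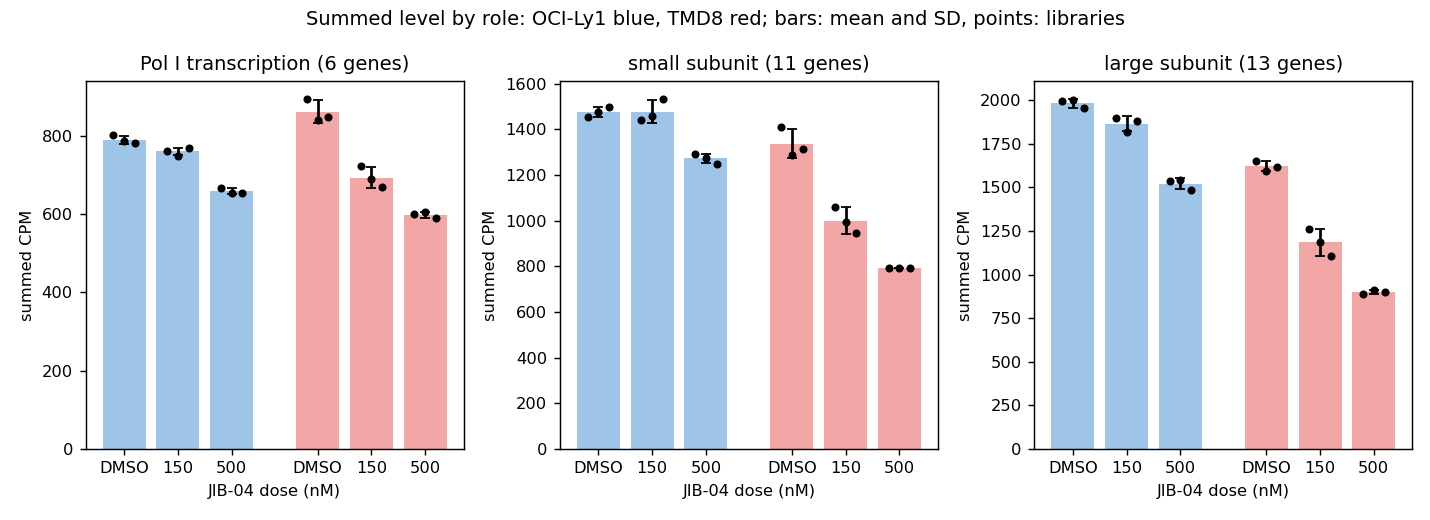
Summed CPM of the Pol I, small-subunit and large-subunit factors (vertical axes starting at 0) by JIB-04 dose in nM; bars are means with SD over 3 libraries, points are libraries, blue is OCI-Ly1 and red is TMD8. The red bars fall at each dose, whereas the blue bars fall mainly between 150 and 500 nM.

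The next comparison asked whether the response itself differed between the lines, by testing the OCI-Ly1 change minus the TMD8 change, each relative to its own vehicle libraries. At 500 nM the difference was called above 0, that is a deeper fall or an opposite change in TMD8, for 39 of 43 factors (background 28.2%), and below 0 for none (background 18.1%). At 150 nM it was also called above 0 for 39 (background 15%) and below 0 for none (8.33%). With library size as the only scaling, 30 factors were called above 0 at 150 nM (background 10.3%). On each TPM scale 42 were (background 20.7% and 20.3% uncentred, 18.2% centred). The medians of the differences were 0.55 at 500 nM and 0.38 at 150 nM, against 0.05 and -0.002 over all genes. Each difference uses the same DMSO libraries at both doses, so the doses are not independent.

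By role, the difference at 500 nM was called for 4 of 6 Pol I factors, 2 of 3 box C/D proteins, all 4 box H/ACA proteins, all 11 small-subunit factors, all 13 large-subunit factors and 5 of the 6 others. LYAR (1.31 ± 0.13 SE, edgeR adjusted p = 9.6e-09), RRP12 (0.88 ± 0.09, adjusted p = 3.4e-08) and RRS1 (0.87 ± 0.12, adjusted p = 9.8e-07) differed most. The 4 factors whose difference did not pass were POLR1A (0.12 ± 0.07), UBTF (0.11 ± 0.07), FBL (0.21 ± 0.09) and NPM1 (-0.06 ± 0.10). FBL was called in 7 of 18 alternatives. On the uncentred TPM scales the difference was called above 0 for all 43, NPM1 included. On these scales it was also called above 0 for 54.8% and 53.1% of all genes, whose medians were 0.38 and 0.50. At 150 nM those not called were POLR1A, NOP10, RRP9 and RRP1.

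Combining the lines at 500 nM, 35 factors were lower in both, where 13.7% of the 14483 genes tested in both lines were. RRN3 and RRP12 were higher in OCI-Ly1 and lower in TMD8, a pattern of 5.01% of all genes. These 2 of 43 are close to that share, so the count does not set the factors apart. The remaining 6 (POLR1C, POLR1E, DKC1, RRP9, HEATR1 and LYAR) were lower in TMD8 and not called in OCI-Ly1, and for each of them the difference between the lines was itself called. On centred log2(TPM + 1) all of these but LYAR were called lower in OCI-Ly1 too (limma adjusted p up to 0.046).

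**Figure D4:**
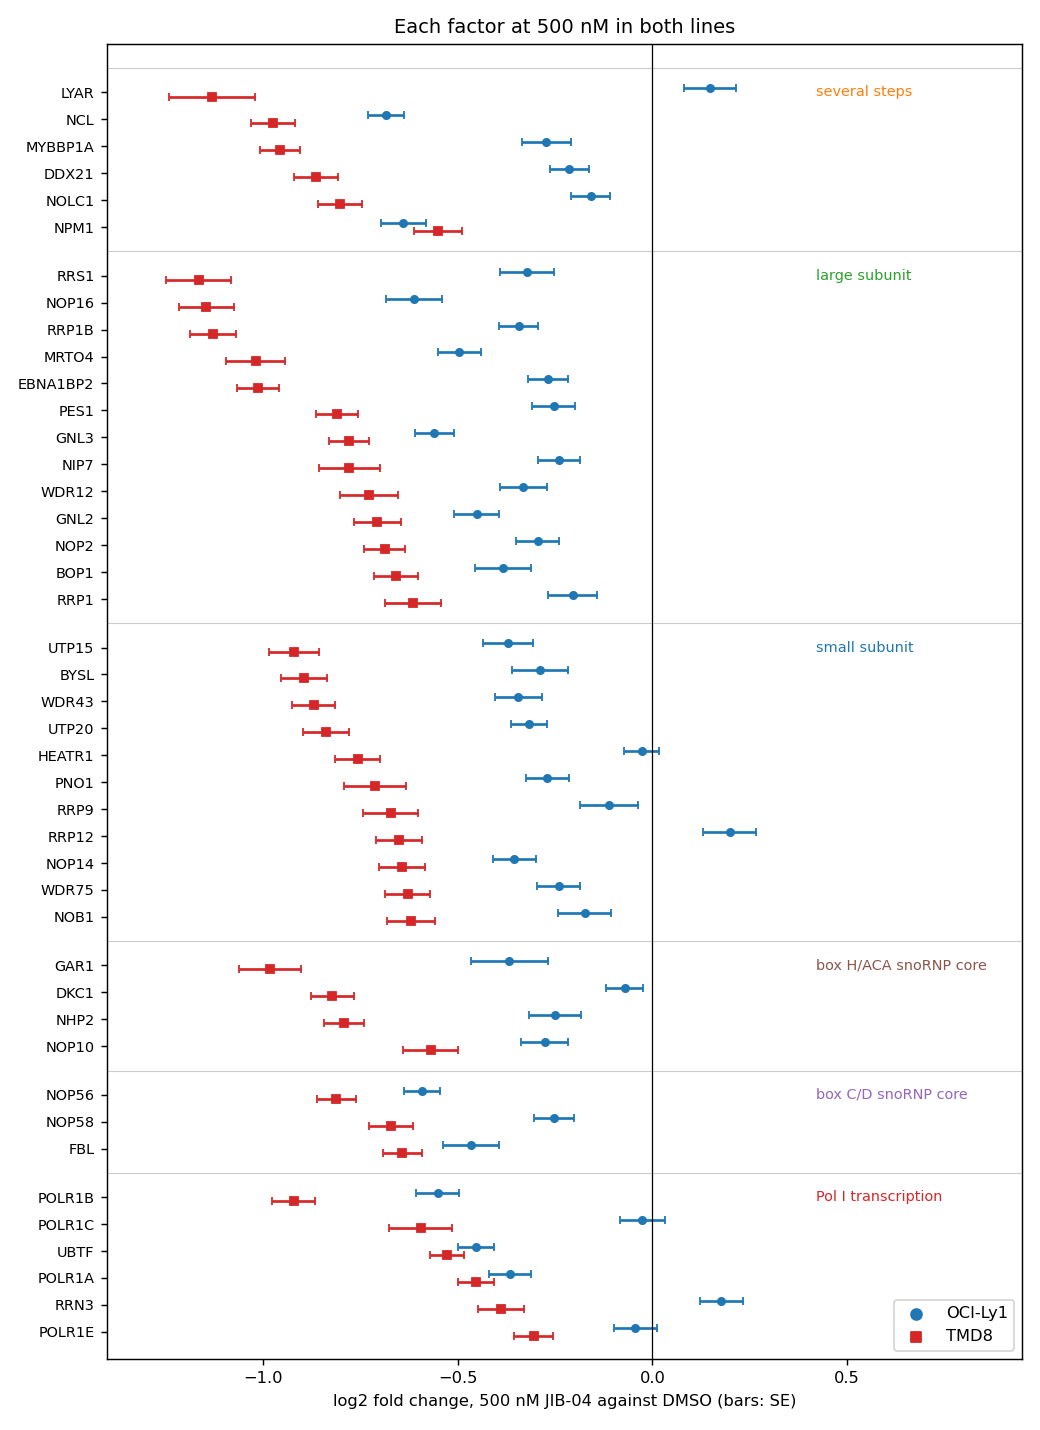
Log2 fold change at 500 nM against DMSO (horizontal axis) with its SE for each of the 43 factors, grouped by role; circles are OCI-Ly1 and squares TMD8. All squares lie left of 0, and 42 of 43 lie left of the circle of the same gene, the exception being NPM1.

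Before treatment the direction of the difference between the lines depended on the scale. With DMSO and TMM scaling, 20 factors were higher in OCI-Ly1 and 16 higher in TMD8 (background 37.8% and 39%), with a median log2 difference of 0.04. On log2(TPM + 1), where the median of all genes was 0.61, 38 factors were higher in OCI-Ly1 and 1, RRP12, higher in TMD8, with a median of 0.998. The background on that scale was 68% and 17.5%. Centred on the median, the same scale gave 25 and 14 (background 38.4% and 45.7%). With TMM scaling LYAR (2.22 ± 0.08 SE), GNL2 (1.57 ± 0.06) and NOP14 (0.97 ± 0.06) were the farthest above TMD8, and RRP12 (-1.78 ± 0.07), FBL (-0.92 ± 0.07) and MYBBP1A (-0.89 ± 0.06) the farthest below (edgeR, largest adjusted p = 4.4e-13). FBL and MYBBP1A had values of 0.04 and 0.06 on log2(TPM + 1), not called (limma adjusted p = 0.67 and 0.52), so their direction turned with the scale, while the other 4 kept theirs. The 7 factors not called were POLR1C, UBTF, WDR75, RRS1, BOP1, EBNA1BP2 and DDX21. Line and medium cannot be told apart in this comparison.

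A wider list of 88 other genes of the pathway held more Pol I, small-subunit and large-subunit factors. It too was chosen with earlier results of these data known. These genes were lower on balance as well, with smaller medians. At 500 nM, 41 of the 88 were lower and 5 higher in OCI-Ly1 (median -0.14), and 84 were lower and 2 higher in TMD8 (median -0.53). The shares of all genes were 25.9% lower and 27.7% higher in OCI-Ly1, and 30.7% and 29.9% in TMD8. At 150 nM none was called in OCI-Ly1, where 5 had an unadjusted p under 0.05 (5.68%, against 10.2% of all genes). In TMD8 75 were lower and 2 higher, against 25% and 19.2% of all genes. Ranked by the smaller of the 2 lines' changes among genes called lower in both, the first 3 were IMP4, a small-subunit processome protein (-0.81 ± 0.06 SE in OCI-Ly1 and -0.93 ± 0.07 in TMD8), CD3EAP, a Pol I subunit (-0.89 ± 0.07 and -0.78 ± 0.12), and RRP7A of the small-subunit branch (-0.51 ± 0.06 and -0.89 ± 0.05). TAF1C, a subunit of the promoter selectivity factor that works with UBTF, was the 1 gene of the 88 called higher in both lines (0.27 ± 0.10, edgeR adjusted p = 0.033, and 0.42 ± 0.06, adjusted p = 6.8e-06).

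The factors were also divided by whether the RefSeq window held an E-box, as a description with no test. At 500 nM in OCI-Ly1 the 14 with the motif had a median log2 change of -0.29 (from -0.50 to -0.11), and the 22 without it a median of -0.29 (from -0.68 to 0.18). In TMD8 the medians were -0.76 (from -1.02 to -0.57) and -0.78 (from -1.15 to -0.39). Among the 10 genes printed above, MRTO4 was the lowest in both lines (-0.50 and -1.02), RRP9 the highest in OCI-Ly1 (-0.11) and NOP10 the highest in TMD8 (-0.57). RRP12 and RRS1 had no window in the table.

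An antisense transcript at NOP14 limits what can be said of that gene, since no strand is stated for the counting. NOP14 changed by -0.36 ± 0.06 SE in OCI-Ly1 and -0.64 ± 0.06 in TMD8 at 500 nM, and NOP14-AS1 by -0.40 and 0.34 (edgeR adjusted p = 0.00095 and 0.011). Reads of the pair could not be told apart if the counting ignored strand.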

How the data were processed

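Per the submitters' processing notes, kallisto 0.46.0, hg19, R 4.3.1 and DESeq2 1.40.2 were used, with no role given. The authors deposited estimated counts per gene symbol and TPM (summing to 1e+06 per library) for each line. How transcripts were joined to genes, and whether strand was used, is not given in the sources used here. The estimated counts were rounded to whole numbers. In R 4.3.3, edgeR 4.0.16 was run with filterByExpr, TMM and the quasi-likelihood test on the 9 libraries of a line (a term per group), or on all 18 for differences between lines. Benjamini-Hochberg adjustment covered all genes tested in a comparison, with calls under 0.05 and a second rule of 0.5 in log2. The scripts were tested on simulated data. The 43 members, their roles, the 88 other pathway genes and the markers were chosen with earlier results of these data known.

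Library values are printed for the factor with the largest change of each role and line, those called in opposite directions and the 3 with the largest difference between lines at 500 nM. Of the other pathway genes, the 3 with the largest change in each direction in both lines are named where that many were called. Alternatives were library size alone, no filter, DESeq2 1.42.0, limma 3.58.1 on log2(TPM + 1), log2(TPM + 0.1) and centred log2(TPM + 1), the replicate number as a block, the 2 groups compared alone, and leaving out each library. For comparisons between lines, the TPM scales were added after seeing the data. Promoter windows came from a RefSeq table of GRCh38.p14. Totals of 9550092 to 32651115 estimated counts set the precision.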

Additional observations from a re-analysis of the deposited data

Results flagged for a closer look

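The change against DMSO differed between OCI-Ly1 and TMD8 for 39 of the 43 factors at 150 nM and for 39 at 500 nM, by edgeR's test of the difference itself over all 18 libraries. Of the factors named or given library by library, those with a called difference at 500 nM had these log2 changes in OCI-Ly1 minus TMD8: LYAR 1.31, RRP12 0.88, RRS1 0.87, DKC1 0.78, HEATR1 0.76, GAR1 0.64, POLR1C 0.60, RRN3 0.60, RRP9 0.59, UTP15 0.58, NOP16 0.56, POLR1B 0.40, NCL 0.32, POLR1E 0.29 and NOP56 0.25. Leaving out each library kept between 38 and 40 differences at 500 nM and between 29 and 40 at 150 nM, the lowest without the third TMD8 library at 150 nM. The line and its medium changed together, so they cannot be told apart. Groups of 3 libraries were too small to test single libraries as outliers.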

How the results depend on the processing

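Within each line, no median and none of the factors given library by library reversed direction in a called comparison. With library size as the only scaling, the factors' median log2 change was -0.20 in OCI-Ly1 and -0.69 in TMD8 at 500 nM, -0.18 between the doses in OCI-Ly1, and 3 factors were called higher between the doses there. On log2(TPM + 1) and log2(TPM + 0.1) the OCI-Ly1 medians were -0.023 and -0.024 at 150 nM, -0.14 and -0.15 at 500 nM, and -0.15 and -0.15 between the doses; 21 factors were lower at 500 nM on each, 17 lower and 2 higher between the doses. In TMD8 these scales gave -0.54 and -0.56 at 150 nM, -1.06 and -1.14 at 500 nM, and -0.55 and -0.59 between the doses. Centred log2(TPM + 1) gave -0.37 at 500 nM in OCI-Ly1 with 0 factors higher, -0.34 between its doses, and -0.81 and -0.39 in TMD8. Between the TMD8 doses the median was -0.41 without a filter and -0.39 by DESeq2. The cause of these shifts was not tested. The median of all genes moved by over 0.1 on some scales: at 500 nM in OCI-Ly1 to 0.10 and 0.13 on the TPM scales and -0.12 when centred, and in TMD8 to 0.13 by library size and -0.22 and -0.31 on the TPM scales. Called genes that were higher made up 51.6% at 500 nM in OCI-Ly1, against 64% by library size, 71.9% and 71.8% on the TPM scales and 32.3% when centred. In TMD8 they made up 49.3%, against 59.4%, 18.8% and 18.9%, and 48.3% when centred. At 150 nM the share was 84.2% in OCI-Ly1 (98.4%, 98.6% and 98% on the 3 TPM scales) and 43.5% in TMD8 (60.5% by library size, 21.3% and 22.5% on the TPM scales). For the difference between lines at 150 nM it was 64.2%, against 47% by library size, where the median of all genes was -0.09. The TPM scales were run for the comparisons between lines after seeing the data. With DMSO, 38 factors were higher in OCI-Ly1 and 1 lower on both uncentred scales (background 68% and 68.1% higher, 17.5% and 17.8% lower). The medians of all genes were 0.61 and 0.88 there, and called genes that were higher went from 49.2% to 79.5% and 79.2%. For the differences between lines that share went from 64.2% to 85.2% on both at 150 nM, and from 60.9% to 89.1% and 90.3% at 500 nM (43.4% when centred).

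Leaving out each library in turn gave 0 to 3 factors higher and 33 to 35 lower at 500 nM in OCI-Ly1, with medians of -0.33 to -0.27. The 0 came without the second DMSO library and the 1 without the first or second 500 nM library. Between its doses 0 to 1 were higher and 28 to 32 lower (medians -0.29 to -0.23), and at 150 nM none was called (medians -0.06 to -0.04). In TMD8, 42 to 43 were lower at 150 nM (-0.46 to -0.33), 43 at 500 nM (-0.80 to -0.76) and 37 to 42 between the doses (-0.42 to -0.31). With DMSO, 18 to 20 factors were higher in OCI-Ly1 and 16 to 17 lower.

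Deviations of same-numbered libraries correlated at -0.07 to 0.26, and in no pair of groups were all 3 correlations over 0.1, so the replicate numbers were not taken to pair the samples. With the replicate block, 35 factors were lower and 2 higher at 500 nM in OCI-Ly1, none was called at 150 nM, and 43 were lower at both doses in TMD8, as without it. The block moved the calls over all genes at 150 nM in OCI-Ly1 from 139 to 207. Between OCI-Ly1 DMSO and 150 nM, 5 of 6 libraries correlated best with their own number.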
